A study of Mus musculus with 6 samples.

Results

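The genes described here are those of DNA replication and of mitosis, a list of 50 genes taken by name from the count table, with 22 genes of S phase and 28 of G2/M. Of the 50, 49 had a row among the 20173 genes of the table (21 S phase and 28 G2/M genes), and Fen1, a flap nuclease, had none. The libraries came from cultures of primary sympathetic neurons, with 3 from Slit2fl/fl and 3 from Slit2th mice on a C57BL/6J background. Slit2fl/fl mice carry floxed alleles of Slit2 without Cre, and Slit2th mice carry the same floxed alleles and a Th-Cre transgene, which deletes Slit2 in cells that express or once expressed tyrosine hydroxylase. By the methods, sympathetic chains of 3-week-old male mice were dissociated and kept for 4 to 5 days in neural medium with B27, although the isolation protocol names dorsal root neurons. The labels give sympathetic ganglion as tissue and neuron as cell type, and neither they nor the methods say how many mice made up a library, so p-values measure the spread between these libraries.

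A dividing cell copies its DNA once, in S phase, and separates the copies in mitosis. Before S phase, Cdc6 and Cdt1 load the helicase made of Mcm2 to Mcm7 onto replication origins, cyclin E with its kinase and Cdc45 set it in motion, and polymerases then copy the DNA. In G2 and M, Cdk1 with cyclins A and B, the Aurora kinases and Polo-like kinase build the spindle, and the anaphase promoting complex with Cdc20 ends the division. Postmitotic neurons do not run this programme, whereas glia and fibroblasts of a dissociated ganglion can divide in culture. S phase genes are largely under the control of E2F factors, and G2/M genes are largely controlled through CHR and CCAAT elements bound by the DREAM complex, B-Myb with FoxM1, and NF-Y.

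Total counts were 1533367 to 3155406 in Slit2fl/fl and 1255939 to 1999485 in Slit2th libraries, so that 3 counts, taken as the floor of detection for counting error only, correspond to 0.961 to 2.65 CPM, the counts scaled to the library size after TMM normalisation. Slit2 itself, the deleted gene, was lower in every Slit2th library (47.8 ± 6.33 CPM in Slit2fl/fl, against 13.9 ± 2.12 CPM in Slit2th, SD, n = 3 each). Th had 0 counts in all 6 libraries, and the 25 of 28 listed sympathetic neuron markers that were in the table summed to 221 to 609 CPM in Slit2fl/fl, against 215 to 231 CPM in Slit2th, with 5 of them at 0 throughout. The 22 markers of Schwann cells and satellite glia summed to 6305 to 12245 CPM in Slit2fl/fl, against 13914 to 20798 CPM in Slit2th, and the 15 macrophage markers to 38.1 to 93.2 and 126 to 689 CPM. The 20 fibroblast markers summed to 2739 to 3969.9 CPM in Slit2fl/fl, against 3744 to 5635 CPM in Slit2th (3317 ± 619 and 4817 ± 971 CPM, SD, n = 3 each), and 13 of the 17 tested had a log2 fold change above 0 (median 0.41), with 3 higher and 0 lower at an unadjusted p under 0.05. The glia and macrophage sums were higher in every Slit2th library while the fibroblast sums overlapped, and their part in the levels below was not tested. The measured levels belong to mixed cultures in which the neuronal label goes against the markers. In such bulk samples, fewer cells of a type and less RNA per cell cannot be told apart. Replicate 1 of each group stood apart from its fellows, Slit2fl/fl replicate 1 with the 609 CPM of neuron markers and Slit2th replicate 1 with the 20798 CPM of glia and 689 CPM of macrophage markers, and values without both are given below.

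Replication and mitosis genes stood mostly lower in Slit2th than in Slit2fl/fl cultures, but no single gene passed the adjusted threshold. In edgeR's quasi-likelihood test, 0 of 12152 genes had an adjusted p under 0.05 (0%), while at an unadjusted p under 0.05, 824 were lower (6.78%) and 485 higher (3.99%) in Slit2th. Of the 20 S phase genes tested, 4 were lower at an unadjusted p under 0.05 (Ccne1, Mcm7, Cdc45 and Tyms) and 0 were higher. Of the 28 G2/M genes tested, 8 were lower (Birc5, Tpx2, Ccnb2, Aurka, Kif20a, Mki67, Cenpa and Plk1) and 0 were higher. The smallest adjusted p of any member was 0.422. Over the same genes, DESeq2 called 31, edgeR's exact test 16 and limma voom 0 at the adjusted threshold, with 0 members among them.

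The log2 fold change (Slit2th over Slit2fl/fl) was below 0 for 16 of 20 S phase and 22 of 28 G2/M genes, compared with 52.2% of all tested genes. Its median was -0.48 for S phase genes (range -2.40 to 1.24) and -0.65 for G2/M genes (range -2.88 to 0.30), beside -0.05 for all tested genes. Every Slit2th library lay below every Slit2fl/fl library for 3 of 20 S phase and 11 of 28 G2/M genes, while the same held for 9.72% of all tested genes. The opposite order, every Slit2th library above every Slit2fl/fl library, held for 0 members and for 8.74% of all tested genes. The S phase count of 3 of 20 is near that background, whereas the G2/M count of 11 of 28 is above it, which is a description of these genes and has no test.

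**Figure D1:**
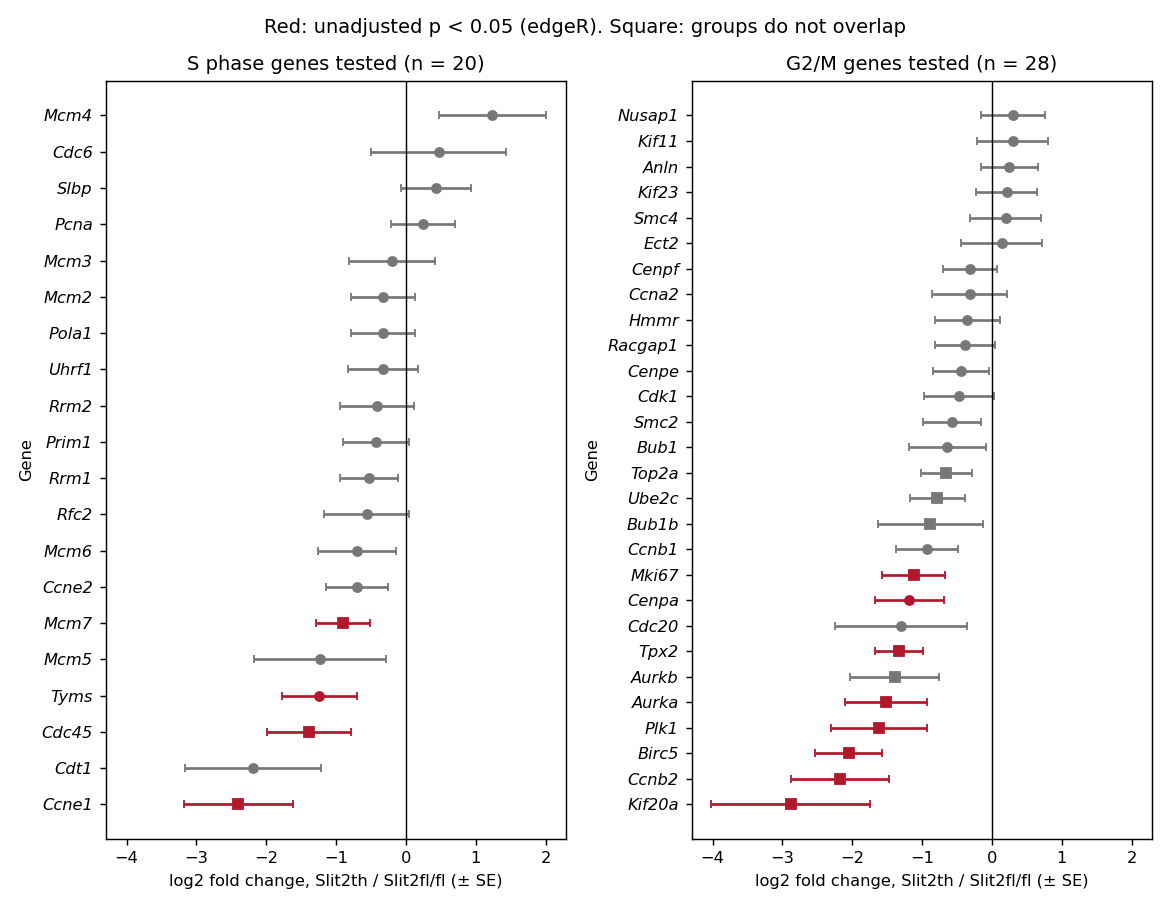
The log2 fold change (Slit2th over Slit2fl/fl) of each tested gene is plotted with its standard error, with 20 S phase genes on the left and 28 G2/M genes on the right, red for an unadjusted p under 0.05 by edgeR and squares for genes whose groups did not overlap. The red points number 4 and 8 and all lie to the left of 0, from Mcm7 at -0.90 to Kif20a at -2.88.

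Summed over the 21 S phase genes, the level was 514, 434 and 479 CPM in Slit2fl/fl replicates 1, 2 and 3 and 349, 365 and 365 CPM in Slit2th replicates 1, 2 and 3. The groups did not overlap. The Slit2th sums lay close together, but 92.7 of the 349 CPM in Slit2th replicate 1 were Mcm4 alone. Cdt1 gave 105 of the 514 CPM in Slit2fl/fl replicate 1. Without Cdt1 the sums were 409, 425 and 471 CPM in Slit2fl/fl, against 345, 357 and 352 CPM in Slit2th, with no overlap. Over the 28 G2/M genes the sums were 897, 1202 and 1004 CPM in Slit2fl/fl, against 519.8, 794 and 896 CPM in Slit2th. Here the groups only just separated, at 897 against 896 CPM, and without Ccnb2 the sums overlapped (777, 1183 and 977 against 511, 781 and 881 CPM). The ratio of the G2/M to the S phase sum was 1.74, 2.77 and 2.09 in Slit2fl/fl, against 1.49, 2.17 and 2.45 in Slit2th, overlapping between the groups.

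**Figure D2:**
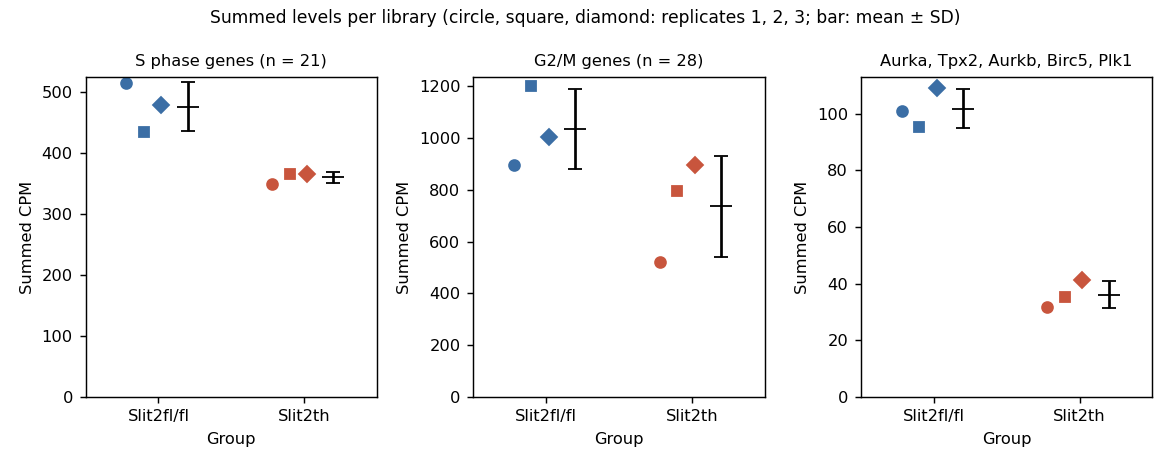
Summed CPM per library is plotted for the S phase genes, the G2/M genes and 5 mitotic kinase and passenger genes, with circles, squares and diamonds for replicates 1, 2 and 3 and a bar for the mean ± SD of 3 libraries. The S phase sums lie between 434 and 514 CPM in Slit2fl/fl, against between 349 and 365 CPM in Slit2th, while the G2/M sums nearly touch at 897 and 896 CPM.

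The promoters of these genes show the letters by which the S phase and G2/M programmes are usually told apart. RefSeq promoter windows (GRCm38.p6, from 250 bases before to 50 after the start) were found for 41 of the 50 genes, 18 of S phase and 23 of G2/M, and for 27025 genes in all. They were searched on both strands for the CHR letters TTTGAA or TTTAAA, the CCAAT box CCAAT, and the E2F letters TTTCGCGC or TTTGGCGC, and the E2F matches can overlap each other. The CHR letters were in 21 of 23 G2/M windows (91.3%) and 6 of 18 S phase windows (33.3%), compared with 27.8% of all windows. The CCAAT box was in 20 of 23 G2/M (87%) and 13 of 18 S phase windows (72.2%), compared with 37.9% of all. The E2F letters were in 1 of 23 G2/M (4.35%) and 6 of 18 S phase windows (33.3%), compared with 0.833% of all. CHR and CCAAT box together were in 19 of 23 G2/M windows (82.6%), 4 of 18 S phase windows (22.2%) and 10.9% of all. Such a match is a description of the letters and not of a bound site.

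Of these windows, 2 of S phase and 3 of G2/M genes are printed over the 250 bases before the start, 5′ to 3′ on the gene's strand, with the matches on either strand in capitals. They show the paired E2F letters of the helicase genes Mcm5 and Mcm6, and the CHR and CCAAT letters of the mitotic genes Cdk1, Ccnb2 and Plk1.
Mcm5 promoter (chr8:75109259-75109508, plus strand): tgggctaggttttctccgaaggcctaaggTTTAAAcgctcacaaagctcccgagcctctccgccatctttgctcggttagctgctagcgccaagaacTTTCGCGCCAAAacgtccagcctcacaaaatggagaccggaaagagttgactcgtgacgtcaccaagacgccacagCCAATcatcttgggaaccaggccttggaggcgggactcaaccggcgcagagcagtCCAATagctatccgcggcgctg
Mcm6 promoter (chr1:128359706-128359955, minus strand): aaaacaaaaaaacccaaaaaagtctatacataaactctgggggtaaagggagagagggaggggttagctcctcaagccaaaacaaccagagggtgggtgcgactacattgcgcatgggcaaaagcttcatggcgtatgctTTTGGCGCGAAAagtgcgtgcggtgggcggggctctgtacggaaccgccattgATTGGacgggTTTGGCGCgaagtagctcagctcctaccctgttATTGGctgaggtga
Cdk1 promoter (chr10:69352913-69353162, minus strand): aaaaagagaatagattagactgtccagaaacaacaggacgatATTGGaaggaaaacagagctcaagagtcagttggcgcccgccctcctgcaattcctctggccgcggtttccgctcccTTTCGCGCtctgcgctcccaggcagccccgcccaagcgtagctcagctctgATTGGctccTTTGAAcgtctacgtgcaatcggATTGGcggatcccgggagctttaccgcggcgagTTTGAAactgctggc
Ccnb2 promoter (chr9:70421555-70421804, minus strand): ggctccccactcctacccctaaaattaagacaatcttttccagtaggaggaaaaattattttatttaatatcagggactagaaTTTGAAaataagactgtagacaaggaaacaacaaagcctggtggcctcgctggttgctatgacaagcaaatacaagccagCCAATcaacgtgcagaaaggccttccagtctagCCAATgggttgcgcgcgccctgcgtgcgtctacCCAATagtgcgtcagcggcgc
Plk1 promoter (chr7:122159185-122159434, plus strand): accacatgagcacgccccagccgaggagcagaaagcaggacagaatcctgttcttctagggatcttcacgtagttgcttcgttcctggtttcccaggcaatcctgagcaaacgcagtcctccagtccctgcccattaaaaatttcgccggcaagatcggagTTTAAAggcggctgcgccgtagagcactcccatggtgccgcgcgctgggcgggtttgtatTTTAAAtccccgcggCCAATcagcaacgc
In Mcm5, the capitals from 153 bases before the start are E2F matches on both strands that overlap. Mcm6 holds a like overlap from 110 bases before the start and a further E2F match at 47. These 2 windows are not limited to E2F letters. Mcm5 also holds CHR letters at 221 and CCAAT boxes at 77 and 22 bases before the start, and Mcm6 CCAAT boxes at 57 and 14. Cdk1 holds CHR letters at 71 and 15 bases before the start, CCAAT boxes just upstream of each at 80 and 48, and also 1 E2F match. Ccnb2 has 3 CCAAT boxes at 87, 54 and 21 bases before the start with a second CHR match just after it, while Plk1 has CHR letters at 89 and 29. The window of Cdc6 holds none of these letters. It begins at 98907901 on chromosome 11, inside the gene as GENCODE annotates it from 98907801, and so does not cover the bases before that start. Ccnb2 and Plk1 were among the members with lower levels in every Slit2th library. Cdk1, which also holds CHR and CCAAT letters, had overlapping groups, as did Mcm5 and Mcm6.

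Among the S phase genes, those that load the helicase were divided. The 8 licensing genes (Mcm2 to Mcm7, Cdc6 and Cdt1) had a median log2 fold change of -0.51, and only Mcm7 passed an unadjusted p under 0.05. Mcm7 stood at 42.3, 30.5 and 33 CPM in the Slit2fl/fl and 16.8, 24.3 and 15.2 CPM in the Slit2th libraries, a log2 fold change of -0.90 (SE 0.39, unadjusted p = 0.044, adjusted p = 0.459 by edgeR). Its 3 Slit2th libraries lay below all Slit2fl/fl libraries, and its exons (chromosome 5, 138164583 to 138172422, minus strand, GRCm38) share 557 bases with Cops6, Ap4m1 and microRNA genes.

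Mcm6 stood at 8.97, 25.3 and 26.7 CPM in Slit2fl/fl, against 6.18, 16.7 and 13.5 CPM in Slit2th (log2 fold change -0.70, SE 0.56). Mcm2 stood at 15.4, 16.9 and 14.2 CPM and 7.06, 11.5 and 18.1 CPM (-0.33, SE 0.46). For both, replicate 1 of Slit2th was the lowest library and the groups overlapped. Mcm3 stood at 5.12, 3.89 and 3.41 CPM in Slit2fl/fl, against 4.41, 4.29 and 2.26 CPM in Slit2th (-0.20, SE 0.61). Mcm5 was measured on 1 to 32 counts, at 10.2, 0.648 and 4.55 CPM in Slit2fl/fl, against 3.53, 2.86 and 0.564 CPM in Slit2th (-1.23, SE 0.95). At these depths no difference was detectable for Mcm3 or Mcm5.

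Mcm4 and Cdt1 each turned on 1 library. Mcm4 stood at 8.65, 26.6 and 16.5 CPM in Slit2fl/fl, against at 92.7, 12.9 and 17.5 CPM in Slit2th, and its log2 fold change of 1.24 (SE 0.77), the highest of all members, was -0.16 without Slit2th replicate 1. Cdt1, the licensing factor that is degraded once S phase begins, stood at 105, 9.07 and 7.96 CPM in Slit2fl/fl, against 4.41, 8.59 and 13.5 CPM in Slit2th, and its log2 fold change of -2.19 (SE 0.98) was 0.08 without Slit2fl/fl replicate 1. Over the other 5 libraries neither gene separated the groups. Summed over Mcm2 to Mcm7, the level was 90.6, 104 and 98.4 CPM in Slit2fl/fl, against 131, 72.5 and 67.2 CPM in Slit2th, where 92.7 of the 131 CPM were Mcm4. Cdc6, the partner of Cdt1, had 7, 1 and 3 counts in Slit2fl/fl and 0, 5 and 7 in Slit2th.

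For the start of replication, Ccne1 (cyclin E1, which activates Cdk2 at the entry to S phase) had the largest difference of any S phase gene. It stood at 6.72, 3.24 and 3.41 CPM in Slit2fl/fl, against 0.883, 0.477 and 1.13 CPM in Slit2th, from 1, 1 and 2 counts in the latter. Its log2 fold change was -2.40 (SE 0.78, unadjusted p = 0.0128, adjusted p = 0.422 by edgeR) and lay between -2.71 and -1.95 with any single library left out. Ccne2, cyclin E2, was more abundant and overlapped between groups, at 27.2, 64.2 and 38.7 CPM in Slit2fl/fl, against 17.7, 31 and 30.5 CPM in Slit2th (-0.70, SE 0.45). Cdc45, the helicase cofactor that fires the origin, stood at 6.4, 6.48 and 5.69 CPM in Slit2fl/fl, against 1.77, 3.34 and 1.69 CPM in Slit2th (-1.39, SE 0.60, unadjusted p = 0.046, adjusted p = 0.462 by edgeR), with no overlap. Gins2, another helicase cofactor, was too low to be tested, with 14, 1 and 1 counts against 0, 1 and 3.

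Of the genes that supply nucleotides, all 3 had negative log2 fold changes. Tyms, the thymidylate synthase, stood at 44.2, 14.3 and 33.5 CPM in Slit2fl/fl, against 7.94, 11 and 19.8 CPM in Slit2th (-1.24, SE 0.54, unadjusted p = 0.0463, adjusted p = 0.462 by edgeR). Only the 14.3 CPM of Slit2fl/fl replicate 2 fell within the Slit2th range. Rrm2, a subunit of ribonucleotide reductase, stood at 23.7, 58.3 and 53.4 CPM in Slit2fl/fl, against 14.1, 50.1 and 36.1 CPM in Slit2th (-0.41, SE 0.53), and Rrm1, the other subunit, had a log2 fold change of -0.53 (SE 0.41). Both overlapped between the groups.

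The genes of the fork and of chromatin copying had small differences of either sign. Pcna, the sliding clamp, was the highest S phase gene per length, with a mean of 24.4 CPM per kb over the 6 libraries. It stood at 27.2, 50.6 and 83 CPM in Slit2fl/fl, against 45.9, 73.5 and 71.1 CPM in Slit2th (0.25, SE 0.46), with the lowest and the highest library both in Slit2fl/fl. Pola1 and Prim1, of the polymerase and primase that start each strand, and Rfc2, of the clamp loader, had log2 fold changes of -0.33, -0.43 and -0.56, and all overlapped. For Rfc2 the value rested on Slit2fl/fl replicate 1 (32 CPM, compared with 7.78 to 12.4 CPM in the other libraries) and was 0.48 without it. Slbp, which binds histone mRNA, stood at 9.93, 13.6 and 10.2 CPM in Slit2fl/fl, against 7.94, 23.9 and 13 CPM in Slit2th (0.43, SE 0.50). Uhrf1, which keeps DNA methylation at the fork, had a log2 fold change of -0.33 (SE 0.50).

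Among the G2/M genes, the median difference was largest for the kinases and the chromosomal passenger complex. Aurka, its activator Tpx2, Aurkb, its partner Birc5 (survivin) and Plk1 were lower in every Slit2th than in any Slit2fl/fl library, and their median log2 fold change was -1.52. This grouping by role was made after the values were seen and has no test. Summed, the 5 genes stood at 101, 95.3 and 109 CPM in Slit2fl/fl, against 31.8, 35.3 and 41.2 CPM in Slit2th (102 ± 6.67 and 36.1 ± 4.76 CPM, SD, n = 3 each).

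Birc5 stood at 22.7, 17.5 and 15.4 CPM in Slit2fl/fl, against 2.65, 4.77 and 5.64 CPM in Slit2th, with the lowest unadjusted p of all members (log2 fold change -2.05, SE 0.48, unadjusted p = 0.00211, adjusted p = 0.422 by edgeR). Its Slit2fl/fl mean was 4.26 times its Slit2th mean. Tpx2, the spindle assembly factor that activates Aurka, stood at 56.4, 57.7 and 52.9 CPM and at 17.7, 22.9 and 25.4 CPM (-1.33, SE 0.35, unadjusted p = 0.0042, adjusted p = 0.422 by edgeR). Both groups of Tpx2 libraries were tight, and with any single library left out its log2 fold change stayed between -1.44 and -1.20.

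Aurka, the centrosomal kinase, stood at 6.4, 9.07 and 5.69 CPM in Slit2fl/fl, against 2.65, 2.86 and 1.69 CPM in Slit2th (-1.52, SE 0.59, unadjusted p = 0.0288, adjusted p = 0.431 by edgeR). Aurkb, the passenger kinase, stood at 6.72, 6.48 and 22.7 CPM in Slit2fl/fl, against 5.3, 3.82 and 4.52 CPM in Slit2th (-1.39, SE 0.64). Most of the difference in Aurkb lay in Slit2fl/fl replicate 3, and the log2 fold change closest to 0 with 1 library left out was -0.62. Plk1 stood at 8.97, 4.54 and 11.9 CPM in Slit2fl/fl, against 3.53, 0.954 and 3.95 CPM in Slit2th (-1.62, SE 0.69, unadjusted p = 0.0424, adjusted p = 0.459 by edgeR). In the Slit2th libraries, Aurka had 3, 6 and 3 counts, Plk1 4, 2 and 7 and Birc5 3, 10 and 10. Some of these lay at or below the floor of 3 counts, whereas Aurkb had 6, 8 and 8 and Tpx2 20, 48 and 45. For each of the 5 genes the exact permutation test over libraries gave p = 0.10, the smallest that 3 libraries against 3 allow. Groups without overlap always give this value, so it adds nothing to that order.

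**Figure D3:**
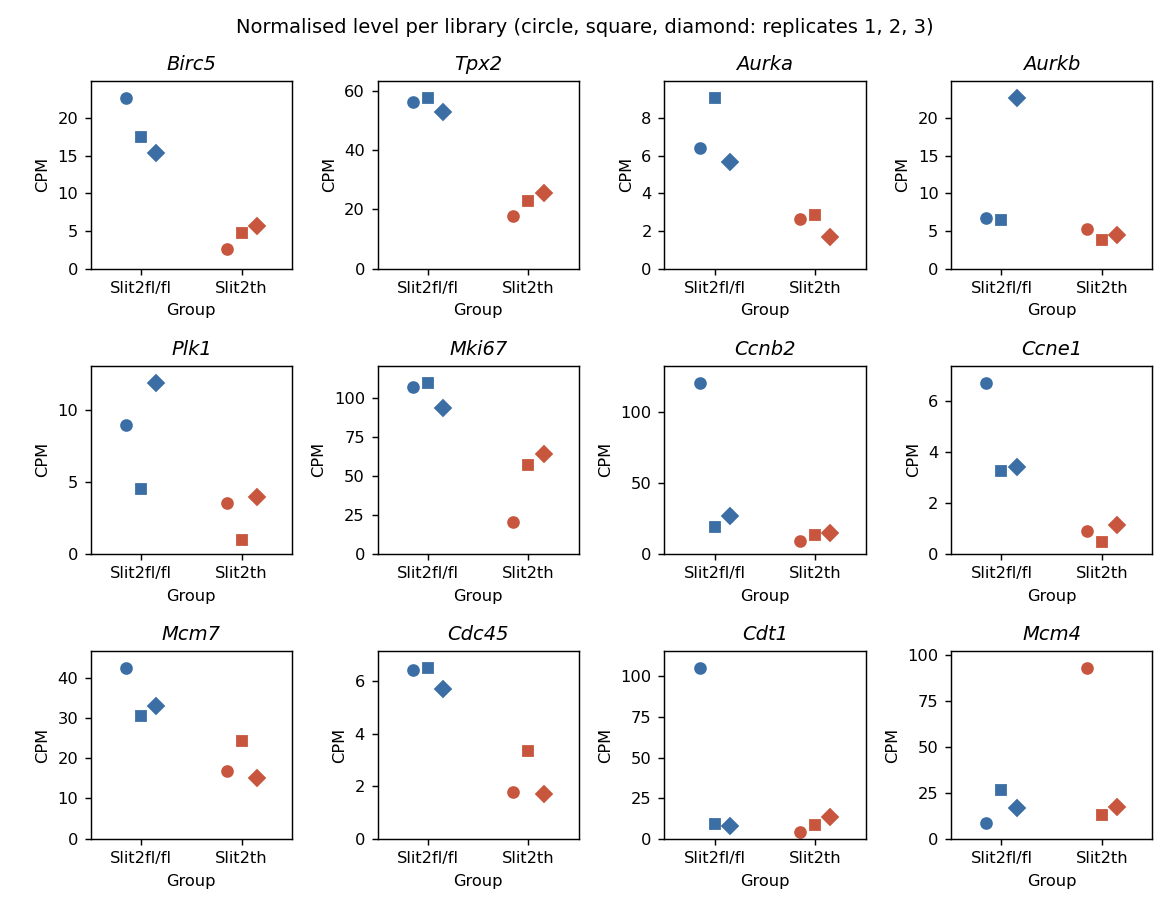
CPM per library is plotted for 12 genes, each panel from 0 on its own scale, with blue for Slit2fl/fl, red for Slit2th and circles, squares and diamonds for replicates 1, 2 and 3. Birc5, Tpx2, Aurka and Mki67 separate the groups in all libraries, while Cdt1 (105 CPM in Slit2fl/fl replicate 1) and Mcm4 (92.7 CPM in Slit2th replicate 1) owe their difference to a single circle.

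The cyclins of mitosis and Cdk1 all had negative log2 fold changes (median -0.70), with unequal support. Ccnb2 (cyclin B2) stood at 120.1, 18.8 and 26.7 CPM in Slit2fl/fl, against 8.83, 12.9 and 14.7 CPM in Slit2th (-2.18, SE 0.70, unadjusted p = 0.0125, adjusted p = 0.422 by edgeR). Its groups did not overlap, but Slit2fl/fl replicate 1 was far above the rest and without it the log2 fold change was -0.89. Ccnb1, cyclin B1, stood at 16.3, 40.8 and 37.5 CPM in Slit2fl/fl, against 17.7, 17.7 and 14.1 CPM in Slit2th (-0.93, SE 0.45), where only Slit2fl/fl replicate 1 lay within the Slit2th range. Cdk1, the kinase that these cyclins activate, stood at 10.9, 25.9 and 10.8 CPM in Slit2fl/fl, against 11.5, 9.06 and 13.5 CPM in Slit2th (-0.47, SE 0.50). The groups of Cdk1 overlapped, and without Slit2fl/fl replicate 2 the value was 0.07. Ccna2, cyclin A2, had a log2 fold change of -0.32 (SE 0.54), which ranged from -0.58 to 0.18 with 1 library left out.

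Mki67 and Top2a, usual markers of dividing cells, were lower in every Slit2th library. Mki67 (Ki-67, the coat of mitotic chromosomes and the usual label of cycling cells) stood at 107, 109.5 and 93.8 CPM in Slit2fl/fl, against 20.3, 56.8 and 64.3 CPM in Slit2th (-1.12, SE 0.45, unadjusted p = 0.0328, adjusted p = 0.442 by edgeR). Top2a, the topoisomerase that untangles sister chromosomes, stood at 109, 140 and 151 CPM in Slit2fl/fl, against 55.6, 91.6 and 106 CPM in Slit2th (-0.65, SE 0.36, unadjusted p = 0.105). Slit2th replicate 1 was the lowest library for both. The condensin subunits did not share this order: Smc2 had a log2 fold change of -0.57 (SE 0.41) with overlapping groups. Smc4, the most abundant member per length (36.4 CPM per kb), stood at 71.1, 296 and 164 CPM in Slit2fl/fl, against 133, 218 and 256 CPM in Slit2th (0.20, SE 0.51).

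Of the checkpoint and anaphase genes, Ube2c, the ubiquitin-conjugating enzyme of the anaphase promoting complex, stood at 43.9, 65.5 and 60.3 CPM in Slit2fl/fl, against 22.1, 34.8 and 41.2 CPM in Slit2th (-0.78, SE 0.39, unadjusted p = 0.0736). The groups of Ube2c did not overlap. Those of the checkpoint kinase Bub1b did not overlap either, on 1 to 9 counts per library, while those of Bub1 and of the anaphase activator Cdc20 overlapped. At the centromere, the histone Cenpa had a log2 fold change of -1.18 (SE 0.50, unadjusted p = 0.0417, adjusted p = 0.459 by edgeR) and the outer kinetochore protein Cenpf one of -0.31 (SE 0.39).

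Most spindle motors and cytokinesis genes had small differences, as did other G2/M genes (Smc4, Cenpf, Ccna2 and Cdk1). The motor Kif11, which pushes the spindle poles apart, stood at 9.29, 14.3 and 10.8 CPM in Slit2fl/fl, against 6.18, 17.2 and 18.1 CPM in Slit2th (0.30, SE 0.51). Kif23, of the central spindle, stood at 16.7, 13 and 13.1 CPM and 9.71, 18.1 and 21.4 CPM (0.21, SE 0.44). In both, Slit2th replicate 1 was the lowest library and the other Slit2th libraries were the highest. Anln, the anillin of the contractile ring, stood at 14.4, 25.3 and 14.8 CPM in Slit2fl/fl, against 21.2, 20 and 23.1 CPM in Slit2th (0.25, SE 0.41). Nusap1, which bundles spindle microtubules, stood at 18.9, 35 and 40.9 CPM in Slit2fl/fl, against 24.7, 56.8 and 34.4 CPM in Slit2th (0.30, SE 0.46), and Ect2 and Racgap1, which place the division furrow, had log2 fold changes of 0.14 (-0.21 without Slit2fl/fl replicate 1) and -0.38. All of these overlapped between the groups, as did Hmmr (-0.35) and Cenpe (-0.44).

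Kif20a, a motor of late mitosis, was the exception among the motors, with 11, 2 and 9 counts in Slit2fl/fl and 0, 0 and 2 in Slit2th. Its fitted log2 fold change of -2.88 (SE 1.14, unadjusted p = 0.0318, adjusted p = 0.441 by edgeR) rests on these few counts and depends on the prior count. With 1 library left out it lay between -5.72 and -2.23, and the -5.72 came without Slit2th replicate 3, where no Slit2th count is left and the value is no bound. Its exons share 1271 bases with those of Cdc23 on the opposite strand, and the strand setting of the counting is not known. Of the other members named, Cdc45, Rfc2, Slbp, Gins2, Ccne2, Ccna2, Top2a, Plk1, Cdc20, Ube2c and Nusap1 also have exons that overlap another annotated gene.

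Per library, the lower levels were spread unevenly. Relative to each gene's own mean over the 6 libraries, the median log2 level of S phase genes was 0.42, 0.20 and 0.37 in Slit2fl/fl, against -0.68, -0.08 and -0.10 in Slit2th replicates 1, 2 and 3. For G2/M genes it was 0.06, 0.42 and 0.47 in Slit2fl/fl, against -0.73, -0.20 and 0.00 in Slit2th. For all tested genes these medians lay between -0.10 and 0.08. Slit2th replicate 1, which is also the library with the fewest counts and the highest sums of glia and macrophage markers, was the lowest library for 10 of 20 S phase and 17 of 28 G2/M genes. The part that these other cells have in its levels was not tested.

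**Figure D4:**
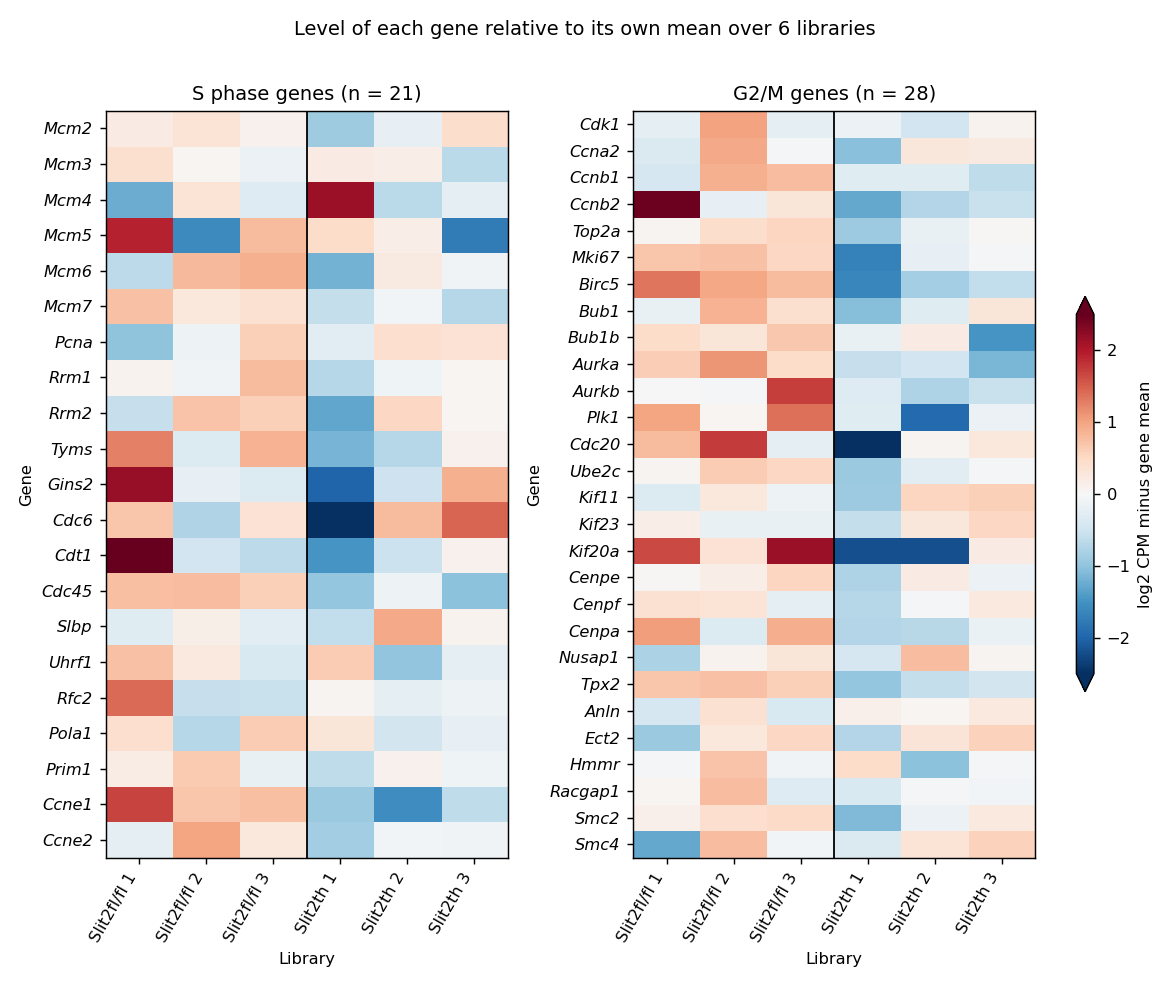
Each row is a gene and each column a library, coloured by log2 CPM minus the gene's mean over the 6 libraries (red higher, blue lower, colours cut at 2.5), for 21 S phase and 28 G2/M genes, with a line between Slit2fl/fl and Slit2th. Blue prevails in the column of Slit2th replicate 1, which was the lowest library for 10 S phase and 17 G2/M of the genes tested, and single dark cells mark Cdt1 and Ccnb2 in Slit2fl/fl replicate 1 and Mcm4 in Slit2th replicate 1.

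Without replicate 1 of both groups, the G2/M genes still stood lower. Of 28 tested, 22 had a log2 fold change below 0, with a median of -0.73, and 10 were lower at an unadjusted p under 0.05, a share that was 10.30% over all genes. After adjustment, 2 were lower, Tpx2 (-1.21, adjusted p = 0.0349 by edgeR) and Ccnb1 (-1.31, adjusted p = 0.0457 by edgeR), where 2.52% of 11473 genes were lower. Of the 19 S phase genes tested there, 2 were lower at an unadjusted p under 0.05 (Ccne2 and Mcm6), 0 after adjustment, with a median of -0.46. The S phase count of 2 of 19 is near the 10.30% of all genes lower in this fit. The members behind these counts were thus partly others than with all libraries: Ccnb2, Kif20a, Cenpa, Mcm7, Cdc45, Tyms and Ccne1 no longer had an unadjusted p under 0.05. Of these, Ccne1 (-2.01, SE 0.95), Kif20a (-2.51, SE 1.18) and Cdc45 (-1.24, SE 0.71) had log2 fold changes near those with all libraries, while Ccnb2 was at -0.74, Tyms at -0.67, Cenpa at -0.85 and Mcm7 at -0.68.

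With single libraries left out, the number of S phase genes lower at an unadjusted p under 0.05 ranged from 0 to 3 and that of G2/M genes from 3 to 7. For G2/M genes it was 3 without Slit2th replicate 1, 3 without Slit2th replicate 2 and 5 without Slit2fl/fl replicate 3. For S phase genes it was 0 without Slit2th replicate 2, 1 without Slit2th replicate 1, and 2 without Slit2fl/fl replicate 1 or Slit2th replicate 3. The share of all tested genes lower at that threshold also moved with the library left out. It was 3.82% without Slit2th replicate 2, 4.34% without Slit2fl/fl replicate 1 and 7.80% without Slit2fl/fl replicate 3. It reached 8.80% without Slit2th replicate 1 and 9.09%, the highest, without Slit2fl/fl replicate 2. The share was lowest without Slit2th replicate 3, just below the 3.82%. The member counts are to be read beside these shares and have no test. The medians remained below 0 in all 21 alternative settings tried.

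**Figure D5:**
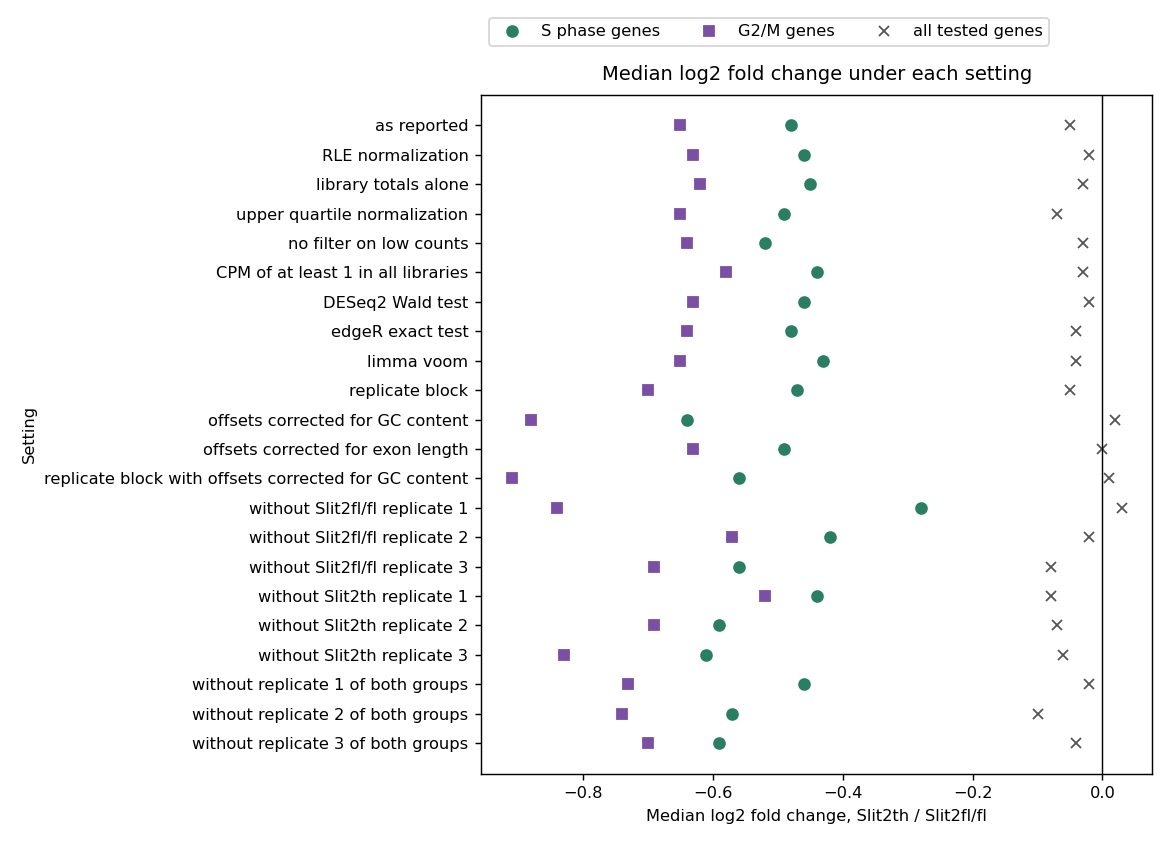
The median log2 fold change (Slit2th over Slit2fl/fl) of the S phase genes, the G2/M genes and all tested genes is plotted for the reported fit and 21 alternative settings, 1 per line. The S phase medians lie between -0.64 and -0.28 and the G2/M medians between -0.91 and -0.52, while those of all genes stay between -0.10 and 0.03.

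The fold change also went with base composition across the whole table. Over all tested genes, the log2 fold change had a rank correlation of -0.346 with GC content and 0.17 with exon length, a description across genes of the same 6 libraries. The members had a median GC content of 47.8%, compared with 49.2% for all genes. With offsets corrected for GC content, the medians were -0.64 for S phase and -0.88 for G2/M genes, further below 0 than without the correction.

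Replication and mitosis genes outside the list had similar values. Of 50 other replication genes tested, 41 had a log2 fold change below 0 (median -0.73), 10 were lower and 0 higher at an unadjusted p under 0.05. Of all tested genes, 52.2% had a log2 fold change below 0, and 6.78% were lower and 3.99% higher at that threshold. Pole, the catalytic subunit of polymerase epsilon, stood at 10.9, 6.48 and 11.4 CPM in Slit2fl/fl, against 0.883, 3.34 and 1.13 CPM in Slit2th (-2.31, SE 0.66). Pold2 (-2.29), of polymerase delta, Gins4 (-1.90), of the helicase, and Pclaf (-1.29), a binding partner of Pcna, were also without overlap. Of 70 other mitosis genes, 56 had a log2 fold change below 0 (median -0.56), with 13 lower and 1 higher at an unadjusted p under 0.05. The 1 higher gene, Ccnf, rested on Slit2th replicate 1 (222 CPM, compared with 3.95 to 8.01 CPM in the other libraries). Spc25, a kinetochore subunit, stood at 96.7, 95.3 and 111 CPM in Slit2fl/fl, against 28.2, 39.6 and 33.3 CPM in Slit2th (-1.58, SE 0.33), and Cenph and Hjurp had log2 fold changes of -2.43 and -1.83. The -2.39 of Cks1b rested on Slit2fl/fl replicate 1 (107 CPM, compared with 17.5 and 21 CPM in the other Slit2fl/fl libraries) and was -1.05 without it. Adjusted p by edgeR was 0.442 for Ccnf and 0.422 for each of the other genes named here.

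The regulators upstream of replication did not share the direction. The 11 G1 cyclins and kinases tested had a median log2 fold change of 0.28, with 0 genes at an unadjusted p under 0.05 in either direction. Myc stood at 7.69, 20.7 and 21 CPM in Slit2fl/fl, against 29.1, 31.5 and 28.2 CPM in Slit2th (0.86, SE 0.47), and Ccnd2 (cyclin D2) and Cdk2 had values of 0.63 and 0.74, while Cdk4 had -0.77 (-0.29 without Slit2fl/fl replicate 1). Of the 15 inhibitors and quiescence genes, 2 were higher and 0 lower at an unadjusted p under 0.05 (median 0.09). Of all tested genes, 3.99% were higher and 6.78% lower at that threshold. Cdkn1b (p27, which inhibits cyclin E with Cdk2) stood at 72, 118 and 107 CPM in Slit2fl/fl, against 163, 193 and 166 CPM in Slit2th (0.82, SE 0.33, unadjusted p = 0.0368, adjusted p = 0.450 by edgeR), without overlap. Cdkn2a was the other, at 0.32, 1.94 and 0.569 CPM in Slit2fl/fl, against 2.65, 5.73 and 2.82 CPM in Slit2th (2.08, SE 0.87). It was measured near the floor, on 1, 3 and 1 counts against 3, 12 and 5. The next by p went in both directions, Cdkn2d at -0.94 (SE 0.53) and Gas1 at 0.93 (SE 0.53).

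Of the 21 genes of the E2F, RB, DREAM and FoxM1 group, 12 had a log2 fold change below 0 (median -0.03). At an unadjusted p under 0.05, 1 of them was lower, beside 6.78% of all tested genes. That gene was Lin37, of the DREAM complex, with 36.2 CPM in Slit2fl/fl replicate 1 and 1.69 to 5.19 CPM in the other 5 libraries, and its log2 fold change of -2.75 was -1.07 without that replicate. Foxm1, the factor of late mitotic genes, stood at 9.93, 11 and 6.25 CPM in Slit2fl/fl, against 3.53, 6.2 and 5.64 CPM in Slit2th (-0.79, SE 0.51), just without overlap, and E2f1 had -0.91 (SE 0.67, but 0.12 without Slit2fl/fl replicate 1) and Tfdp1 0.97 (SE 0.47). Of 21 genes of DNA repair in S phase, 8 had a log2 fold change below 0 (median 0.09). Atr, the kinase that senses stalled forks, was the only one at an unadjusted p under 0.05. It stood at 6.72, 17.5 and 15.4 CPM in Slit2fl/fl, against 22.1, 31.5 and 40.6 CPM in Slit2th (1.27, SE 0.48). The next by p were Bard1 (-1.96, SE 1.02, without overlap on 0 to 7 counts), Topbp1 (0.76, SE 0.41) and Atrip (-1.25, SE 0.72). Of 54 replication-dependent histone genes in the table, 18 were tested, with a median of -0.10, 2 lower and 1 higher at an unadjusted p under 0.05. The counts of repair and histone genes stand beside 6.78% lower and 3.99% higher of all tested genes.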

How the data were processed

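RNA was measured in 6 libraries, 3 Slit2fl/fl and 3 Slit2th, grouped by the genotype in the labels. The authors prepared libraries with a TruSeq kit, sequenced them on an Illumina HiSeq instrument, aligned the reads with HISAT2 to mm10 (the labels name GRCm39) and deposited whole-number read counts per gene, which are not normalised. The counting program, strand setting and annotation release are not given in the sources used here. The study's own test used edgeR and left out genes under 1 CPM.

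Gene identifiers were joined to GENCODE M21 (GRCm38), in which 20166 of 20173 were found. Lengths are of merged exons, and GC content was taken over all transcripts of a gene. The analysis ran in R 4.3.3 and used edgeR 4.0.16 (TMM, a filter of CPM 1 or more in 3 or more libraries, quasi-likelihood test, two-sided, Benjamini-Hochberg over all 12152 genes, threshold 0.05), limma 3.58.1 and DESeq2 1.42.0, and the test was checked on simulated counts. Across genes the biological coefficient of variation was 50.4%. Levels are CPM computed from the deposited counts, and log2 levels used a prior count of 0.5. Exact permutation tests of log2 CPM cannot go below 0.10 here.

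The members and the other lists were chosen with earlier results of these data known, and the grouping by role came after the counts were seen, so no list was tested as a set. Genes named with values in every library were Mki67, Top2a, Cdk1, Pcna, the Mcm genes, and in each of S phase and G2/M the 5 with the smallest p, the 3 highest per length and up to 4 against the group's median, with up to 4 genes by smallest p in each other cell cycle list. Members named beyond this (Aurkb, Plk1, Ccnb1 and those given by fold change) were chosen for their role.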

Additional observations from a re-analysis of the deposited data

How the results depend on the processing

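In all 21 alternatives both medians were below 0. The sign of the log2 fold change was kept by 11 S phase and 19 G2/M genes in the alternatives that tested them, of which 9 and 16 had a value in all 21 and Mcm5, Ccne1, Kif20a, Bub1b and Cdc20 in 19 or 20. The number of genes past the adjusted threshold, 0 as reported, was 7 without a filter on low counts, 31 with DESeq2, 16 with edgeR's exact test, 377 without replicate 1 of both groups and 0 to 1 with a single library left out. The S phase genes lower at an unadjusted p under 0.05, 4 as reported, numbered 2 with library totals alone, 2 with DESeq2, 2 without replicate 1, 2 without replicate 2 and 1 without replicate 3 of both groups, and 0 to 3 with a library left out. The S phase genes higher numbered 1 without replicate 2 of both groups and 0 to 1 with a library left out. The G2/M genes lower, 8 as reported, numbered 5 with DESeq2, 4 and 3 without replicate 2 or 3 of both groups, and 3 to 7 with a library left out, and those past the adjusted threshold 2 without replicate 1 of both groups. The cause of these shifts was not tested. The share of all tested genes lower at an unadjusted p under 0.05 moved as well. It was 6.78% as reported, 5.94% with DESeq2, and 10.30%, 5.24% and 3.66% without replicate 1, 2 or 3 of both groups. With offsets corrected for GC content the log2 fold change turned to 0.02 for Mcm2, 0.06 for Mcm3, -0.08 for Smc4, -0.03 for Kif11, -0.02 for Anln, 0.01 for Uhrf1 and -0.13 for Ect2, and, among the genes given in every library, with the replicate block added to 0.04 for Mcm3, -0.03 for Smc4 and -0.08 for Kif11. It turned to -0.52 for Mcm4, 0.35 for Cdt1 and 0.09 for E2f1 without replicate 1 of both groups, to 0.17 for Cdk1 and -0.04 for Nusap1 without replicate 2, and to -0.06 for Smc4 and -0.08 for Kif23 without replicate 3. With a single library left out, it spanned 0 for Cdk1 (-0.73 to 0.07), Pcna (-0.07 to 0.65), Mcm3 (-0.40 to 0.06), Mcm4 (-0.16 to 1.70), Cdt1 (-2.78 to 0.08), Cdc6 (-0.19 to 0.94), Slbp (-0.07 to 0.72), Smc4 (-0.19 to 0.80), Nusap1 (-0.07 to 0.54) and Kif23 (-0.01 to 0.47). The same held for Rfc2 (-0.96 to 0.48), Ccna2 (-0.58 to 0.18), Ect2 (-0.21 to 0.43) and, outside the members, E2f1 (-1.33 to 0.12).

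The replicate numbers are shared by the groups in the labels only as numbers: the deviations of same-numbered libraries from their group means correlated at 0.231, 0.177 and 0.0476 across genes, and Slit2th replicate 3 correlated best with Slit2fl/fl replicate 2 (0.194). With the replicate number as a block, 3 S phase and 10 G2/M genes were lower at an unadjusted p under 0.05, the medians were -0.47 and -0.70, and 0 genes passed the adjusted threshold. Of all tested genes, 7.58% were lower at that unadjusted threshold in this setting. Depth limits the low members most: Mcm5, Cdc6, Gins2, Cdc45, Ccne1, Birc5, Bub1b, Aurka, Plk1, Cdc20 and Kif20a had 3 or fewer counts in at least 1 library.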
